A study of Mus musculus with 2 samples.

Results

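The Hox cluster genes were examined in mouse embryo fibroblasts (MEFs) with and without a gene trap in Ebp1. Members were all genes whose only annotated symbol is Hoxa, Hoxb, Hoxc or Hoxd followed by a number, and 33 of the 18193 genes with 1 symbol met this rule. The 33 members had 48 probe sets. Antisense genes of the clusters and 3 probe sets shared by several symbols were left out.

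For each genotype, RNA of passage 2 MEFs prepared from embryos of day 12.5 was measured on 1 array. The knock out carries a retroviral gene trap in intron 2 of Pa2g4, which encodes Ebp1, on a mixed strain background that includes C57BL/6, and the wild type cells were prepared in the same way. MEFs are a mixed culture of minced whole embryos, the sources used here do not give the number of embryos pooled, and in such bulk RNA fewer cells of a type cannot be told apart from less RNA per cell. Pa2g4 itself had a signal of 1835 in wild type MEFs and 1178 in the knock out, a log2 ratio of -0.64, and its 5 probe sets ranged from -0.90 to -0.33. These array values are lower on each probe set but do not by themselves show a loss of the transcript. Where the probe sets lie relative to the trap was not examined. By other methods, the study found Ebp1 mRNA (RT-PCR) and Ebp1 protein (Western blot) absent from its knock out MEFs.

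Values are MAS5 signals in linear intensity units, scaled by the authors so that each array has the same average. Each gene is given by its probe set with the highest mean log2 signal, and signals under 100 count as low. Signals of different probe sets are not comparable as levels, so each gene is compared with itself between arrays. Where a pair of signals is given, wild type comes first, and the log2 ratio is that of knock out to wild type. With 1 array per genotype there is no replicate check, no error and no test for any value below.

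Hox genes encode homeodomain transcription factors that give cells their position along the head to tail axis and along the limbs and genital tract. In mammals they lie in 4 clusters, A to D, and genes at the same place in each cluster are paralogs with the same number. Low numbers are expressed early and far forward, high numbers late and towards the tail and the limb ends. Fibroblasts keep much of this pattern in culture. The proteins bind DNA together with Pbx, Meis and Pknox homeodomain partners, and Polycomb and Trithorax proteins hold the clusters silent or active.

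As the arrays were scaled by the authors, most Hox genes that could be measured had a slightly higher signal in knock out MEFs, and none of them reached a 2-fold difference on its reported probe set. With scaling to spike-ins most were lower instead. Of the 33 members, 16 had a signal of at least 100 in wild type MEFs and 18 in the knock out. Both arrays reached 100 for 14 genes and neither did for 13, while 2 genes reached it in wild type MEFs alone and 4 in knock out MEFs alone. Of all 18193 genes, 9677 reached it on both arrays, 7640 on neither, 434 in wild type MEFs alone and 442 in knock out MEFs alone. Among all 18193 genes the shares at 100 were 55.6% on each array, against 48.5% and 54.5% of the Hox genes. Among the 20 Hox genes that reached 100 on at least 1 array, 15 were higher and 5 lower in knock out MEFs. Their median log2 ratio was 0.16, with a range from -0.59 to 0.65. A gene that reached 100 on 1 array alone could differ only in that direction. Of the 14 that reached 100 on both arrays, 11 were higher and 3 lower, with a median of 0.11. A 2-fold difference was exceeded by 0 of the 20 in either direction, where among 10553 genes of the same minimum 1.58% were over 2-fold higher and 1.93% were lower by as much.

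The direction of these small differences depends on how the arrays are scaled. Of all 10553 genes, 41.9% had a log2 ratio above 0, and their median was -0.06. Of the 7880 genes within the mean signal range of the Hox genes, 40.3% were above 0, and the middle 90% of them lay between -0.71 and 0.60. Of the 20 Hox genes 18 lay inside that range. Hoxa5 lay above the range on its reported probe set but inside it on its other one (0.14). Hoxd11 lay just past the upper limit of the range through a wild type signal under 100, and inside it, at 0.05, when that signal was set to 100. Centring each array on its median moved the median of all genes by -0.11 and left 11 of the 20 Hox genes above 0. Scaling to the 9 hybridization spike-ins moved it by -0.39 and left 3 above 0. Relative to the median of all genes, the Hox median was higher by 0.23 under the deposited scaling and by 0.21 after both quantile normalization and loess. The other scalings shift each gene alike and cannot alter that distance. With spike-ins the genes above 0 were Hoxa5, Hoxb6 and Hoxd11, and 15 of the 20 lay above the median of all genes under each scaling.

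**Figure D1:**
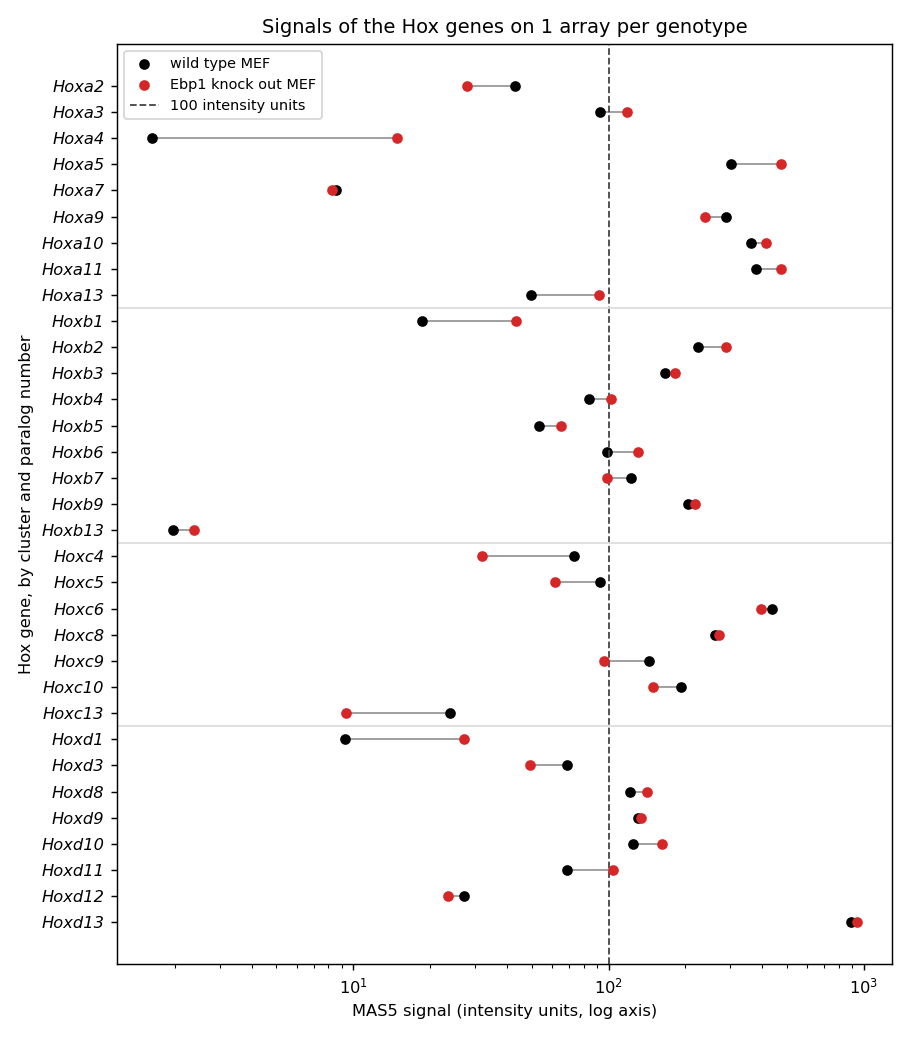
Signals of the 33 Hox genes in wild type (black) and Ebp1 knock out MEFs (red), 1 array each, on a logarithmic axis in intensity units, ordered by cluster and paralog number. The dashed line marks 100, which 14 genes exceeded on both arrays and 13 on neither, and Hoxd13 is the only one over 500.

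The posterior genes, paralogs 9 to 13, included the only Hox gene to reach 500, and 8 of 14 were at least 100 on both arrays. Of all 18193 genes, 9677 were at least 100 on both arrays and 5014 reached 500 on at least 1. Hoxd13, which patterns digits and external genitalia, was 886 in wild type MEFs and 941 in the knock out (log2 ratio 0.09, below 0 with median centring and spike-ins). The signals of this probe set were close to each other on the arrays. The other probe set of Hoxd13 was 31.4 and 105 (1.75), so the probe sets of this gene disagreed in size.

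Next to it on the chromosome, Hoxd12, a limb and genital gene, was low on both arrays (27.2 and 23.4). To set a gene with signal on both arrays beside a low neighbour, 150 bases directly before the start of each are shown, on the plus strand of GRCm38.p6, with CpG dinucleotides in capitals. The stretch of Hoxd13 is chr2:74668075-74668224 and that of Hoxd12 chr2:74674863-74675012.

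Hoxd13: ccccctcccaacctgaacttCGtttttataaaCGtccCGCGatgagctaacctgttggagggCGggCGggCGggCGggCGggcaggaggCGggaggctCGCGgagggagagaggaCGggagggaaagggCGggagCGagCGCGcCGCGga

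Hoxd12: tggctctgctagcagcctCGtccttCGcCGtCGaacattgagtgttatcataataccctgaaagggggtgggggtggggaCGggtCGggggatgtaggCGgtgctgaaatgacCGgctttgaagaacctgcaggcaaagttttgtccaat

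The stretch of Hoxd13 holds 19 CpG and a TATAAA, and that of Hoxd12 holds 8 CpG and no TATAAA. Over the full RefSeq windows of 300 bases, 250 before the start and 50 after it, the counts were 37 and 13, and 94.4% and 62.1% of all 32851 windows held fewer. Windows were given for 19 of the 33 Hox genes, and where a gene had several the one with most CpG was taken. The 8 genes with at least 100 on both arrays had a median of 20.5 CpG (4 to 37), and the 8 low on both had 11.5 (9 to 45), so the counts overlapped. The highest count, 45, was that of Hoxa13, which was low on both arrays. TATAAA, searched on both strands, was in windows of Hoxd13 and Hoxa10 and in 13.6% of all windows. AGGTCA, part of many retinoic acid response elements, was found on either strand in windows of Hoxa5, Hoxb4, Hoxc4, Hoxd3, Hoxd8 and Hoxd10, which is 6 of 19 genes, and in 16.3% of all windows. CCAAT was in windows of 12 of the 19 genes and in 37.4% of all. The 6 genes with AGGTCA included low ones and ones with signal on both arrays. A match describes the letters and not a bound site.

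Hoxa13, the partner of Hoxd13 in the digits and the genital tubercle, was 49.7 in wild type MEFs and 91.6 in the knock out and thus stayed just under 100. Hoxa11, which patterns the forearm and the uterus, was 379 and 471 (0.31). Hoxa10, a gene of the hindlimb, the lumbar spine and the uterus, was 362 and 414 (0.19). Both were higher on the knock out array by less than the threshold of 2-fold, and with spike-in scaling both were lower. Hoxa9, known for its role in blood progenitors and leukemia, was 289 and 239 (-0.27), the only lower one among the measured genes of cluster A, while its other probe set was 201 and 259 (0.36).

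In cluster D the genes from Hoxd8 to Hoxd11 lay near 100 on both arrays. Hoxd11, which acts with Hoxa11 in the forearm, was 68.4 in wild type MEFs and 104 in the knock out (0.60). With the low signal set to 100, the difference as deposited is at least 1.04-fold. Reaching 100 in knock out MEFs alone fixed the direction of Hoxd11 as deposited. Hoxd10, active in the lumbar spine and hindlimb, was 124 and 161 (0.38). Hoxd9, which acts in the same region, was 130.4 and 134 (0.04, below 0 with median centring, quantile normalization and spike-ins). All of the 5 measured genes of this cluster were higher in knock out MEFs as deposited, 3 of them after median centring, 4 after quantile normalization and 1 after spike-in scaling, and all 5 stayed above the median of all genes.

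In cluster C the posterior genes lay the other way. Hoxc9, a gene of the thoracic region, was 143 in wild type MEFs and 95.5 in the knock out (-0.59), which is lower by a factor of 1.43 or more. Hoxc10, which acts in the lumbar spinal cord and hindlimb, was 193 and 149 (-0.37). Hoxc13, needed for hair and nails, was low on both arrays at 23.9 and 9.40. In cluster B, Hoxb9, a gene of the rib-bearing trunk, was 204 and 218 (0.10, below 0 with median centring and spike-ins), and Hoxb13, a gene of the tail and the prostate, was near the lower end of the signals, at 1.98 and 2.38.

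**Figure D2:**
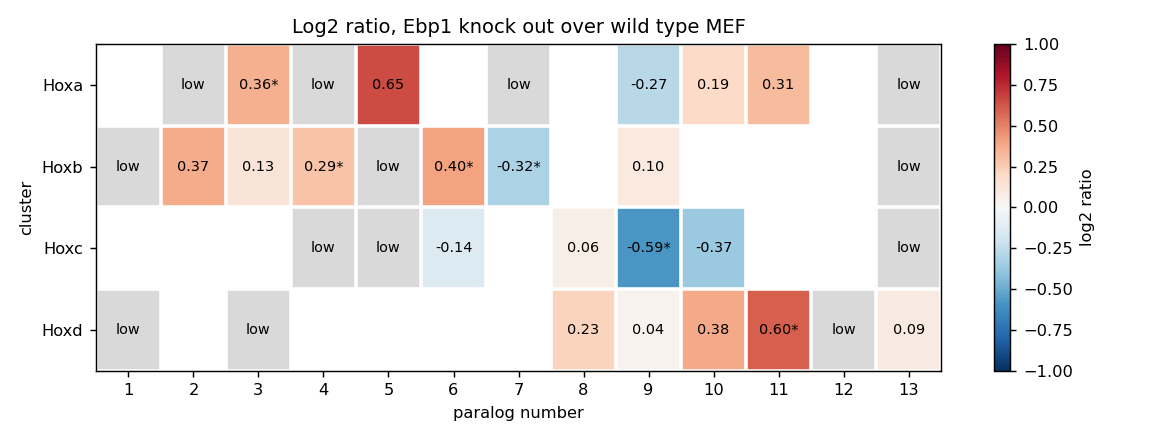
Log2 ratio (knock out to wild type) by cluster (rows) and paralog number (columns) under the deposited scaling. An asterisk marks a gene under 100 on 1 array, for which the minimum fixes the direction. Grey cells were under 100 on both, and white cells have no gene or no probe set of its own. The 5 measured genes of cluster D are above 0 (3 of them with median centring, 4 with quantile normalization and 1 with spike-ins), and Hoxc9, Hoxc10 and Hoxc6 are below 0.

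Of the 12 central genes, paralogs 4 to 8, 4 were at least 100 on both arrays, where 9677 of all 18193 genes were. Hoxa5, needed for lung development and the cervical and thoracic spine, had the largest ratio among the reported probe sets of measured Hox genes, with 303 in wild type MEFs and 475 in the knock out (0.65). Its other probe set was 222 and 245 (0.14). With spike-in scaling, which lowers each ratio by 0.39, the reported probe set stayed above 0 (0.26), while the other one falls below 0. Hoxc6, a gene of the thoracic region, was 435 and 396 (-0.14), and its next probe set was 401 and 311 (-0.37). Hoxc8, of the thoracic spine and the motor neurons of the forelimb, was 261 and 272 (0.06, below 0 with median centring and spike-ins). Hoxd8 was 121 and 142 (0.23), but a dimmer probe set was 99.0 and 42.6.

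The other central genes were near or below 100. Hoxb4, used to expand blood stem cells, was 84.1 in wild type MEFs and 103 in the knock out (0.29). Hoxb6 was 98.4 and 129.9 (0.40). Hoxb7 was 123 and 98.4 (-0.32), the only measured gene of cluster B that was lower as deposited. These 3 crossed the line of 100 between the arrays. With the low signal set to 100, their differences as deposited were at least 1.03-fold, 1.30-fold and 1.23-fold. These bounds do not hold under other scalings. With spike-ins the log2 ratios were -0.10 for Hoxb4, 0.01 for Hoxb6 and -0.70 for Hoxb7. Hoxb5 (53.2 and 65.0), Hoxc4 (73.3 and 31.9), Hoxc5 (92.8 and 61.9), Hoxa4 (1.63 and 14.9) and Hoxa7 (8.57 and 8.27) were low on both arrays, and no fold is given for them. Just outside the line lay Hoxc5 and Hoxa13, and just inside it Hoxb4 and Hoxd11.

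Of the 7 anterior genes, paralogs 1 to 3, Hoxb2 and Hoxb3 were at least 100 on both arrays. Hoxb2, which acts in the hindbrain, was 223 in wild type MEFs and 289 in the knock out (0.37). Hoxb3, which acts in the hindbrain and pharyngeal arches, was 166 and 182 (0.13), but its dimmer probe set was 148 and 59.5 (-1.32). Hoxa3, needed for the thymus and parathyroid, was 92.2 and 118 (0.36). With the low signal set to 100, the difference as deposited is at least 1.18-fold. Reaching 100 in knock out MEFs alone fixed the direction of Hoxa3 as deposited. All 3 measured anterior genes were higher in knock out MEFs as deposited and after median centring, quantile normalization and loess, and all 3 were lower with spike-ins. Hoxa2, which specifies the second pharyngeal arch, was low (42.8 and 27.9). Hoxb1, a hindbrain gene (18.6 and 43.3), Hoxd1 (9.32 and 27.2) and Hoxd3 (68.9 and 49.2) were also low on both arrays.

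By cluster, the median log2 ratio of the measured genes was 0.31 in cluster A (5 genes, 4 higher), 0.21 in cluster B (6 genes, 5 higher), -0.25 in cluster C (4 genes, 3 lower) and 0.23 in cluster D (5 genes, all higher). These counts include genes that reached 100 on 1 array alone, whose direction as deposited was thereby fixed. With spike-in scaling the medians were -0.07, -0.18, -0.64 and -0.16, so the sign of clusters A, B and D changed. Relative to the median of all genes, cluster C was lower by 0.19, and clusters A, B and D were higher by 0.38, 0.27 and 0.29. After quantile normalization these distances were -0.19 for cluster C and 0.35, 0.22 and 0.24 for A, B and D. Whether cluster C differs from the others was not tested, since genes of a cluster are not replicates. By region the medians were 0.36 for the 3 anterior, 0.23 for the 7 central and 0.09 for the 10 posterior genes. With signals under 100 raised to 100 these medians were 0.24, 0.06 and 0.07. With median centring the posterior one was -0.01, and with spike-ins all were negative. Whether the regions differ was not tested.

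**Figure D3:**
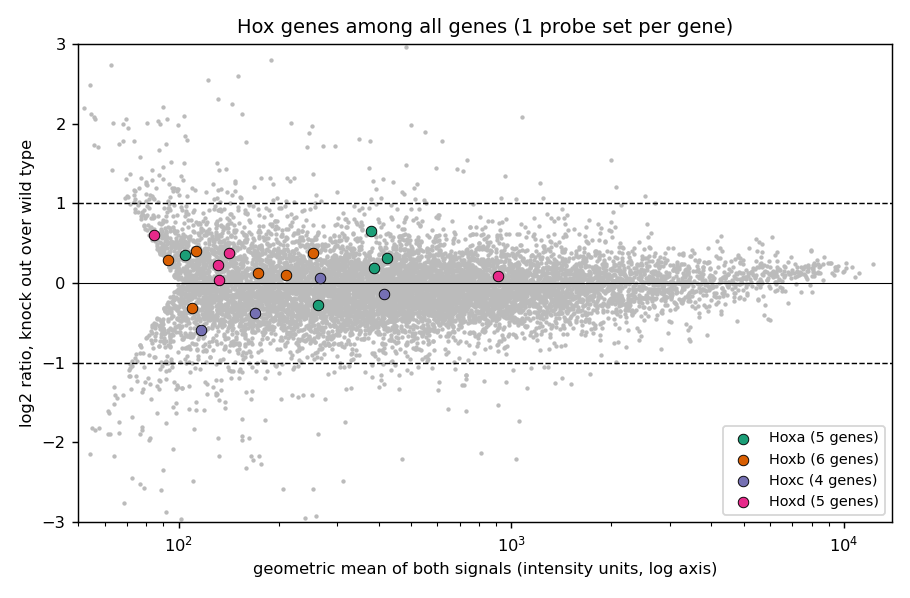
Log2 ratio (vertical) against the geometric mean of the signals (horizontal, logarithmic, intensity units) for genes with at least 100 on at least 1 array (grey), 1 probe set per gene, and for the 20 Hox genes of these, coloured by cluster. Dashed lines mark 2-fold; 19 of the 10553 genes lie outside the plot. The Hox genes lie between -0.59 and 0.65, inside both lines.

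The log2 ratios of these arrays scattered more at lower signals. Across all probe sets their standard deviation was 1.24 at mean signals under 50, 0.64 from 50 to 100, 0.54 from 100 to 200, 0.45 from 200 to 500, 0.37 from 500 to 1000 and 0.30 above. The mean signals of the 20 measured Hox genes ran from 84.2 to 913. Of the 11 Hox genes with several probe sets, Hoxa5, Hoxa9, Hoxb3, Hoxc6 and Hoxd13 had more than 1 that reached 100. The log2 ratios within these genes differed by 0.51, 0.64, 1.45, 0.23 and 1.66, with a median of 0.64, against a median of 0.44 over 4479 genes with several such probe sets. For Hoxa9 and Hoxb3 the probe sets lay on both sides of 0. What each probe set of a gene detects was not examined.

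**Figure D4:**
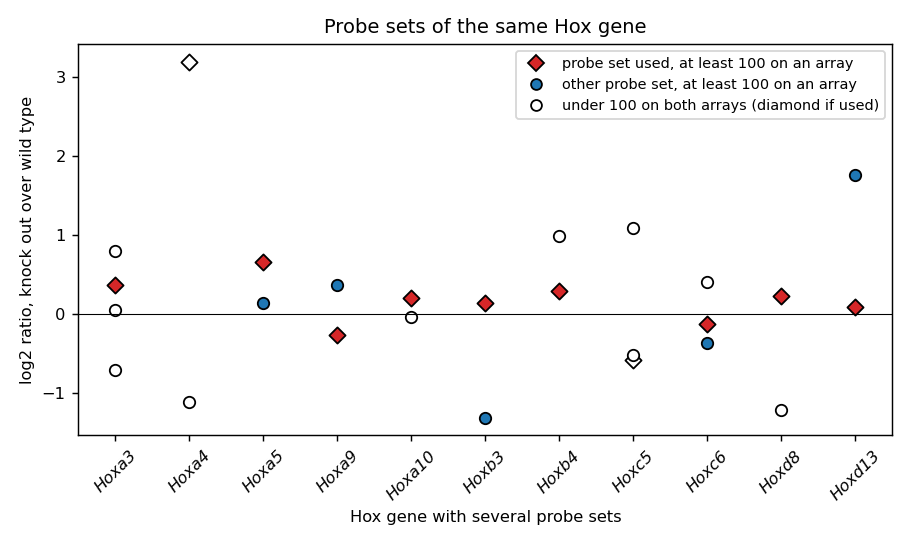
Log2 ratio (knock out to wild type) for each probe set of the 11 Hox genes that have several. Diamonds mark the probe set used, circles the others, and open symbols mark signals below 100 on both. Those of Hoxa9 and Hoxb3 that reached 100 lie on both sides of 0, and those of Hoxd13 at 0.09 and 1.75.

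Signals of the genes of the DNA-binding partners were lower in knock out MEFs, mostly by less than 2-fold. Of 8 measured genes of the Pbx, Meis and Pknox families, 7 reached 100 on at least 1 array and all 7 were lower, with a median log2 ratio of -0.52, where 58.1% of all 10553 genes were lower with a median of -0.06. This held after loess, quantile normalization, median centring and spike-in scaling, and each was below the median of all genes under each of them. Only 5 of the 7 genes reached 100 in knock out MEFs as well, and these were also lower. For the others, reaching 100 in wild type MEFs alone fixed the direction. Pbx3, with 1183 and 715 (-0.73), Meis2, with 648 and 396 (-0.71), and Pbx2, with 461 and 386 (-0.25), had the highest mean signals of the list. Pknox2 was the only one over 2-fold apart on its reported probe set, at 214 and 84.2 (-1.35), and its other probe set was low on both arrays (57.2 and 74.0). Of 14 probe sets of these 7 genes that reached 100, 12 were lower, and the 2 higher ones were those of Pknox1 at 54.1 and 105 and at 78.5 and 126.

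On their reported probe sets, genes that set the state of the clusters were all within 2-fold. Among all 10553 genes of the same minimum, 1.58% were over 2-fold higher and 1.93% lower by as much. Of 15 measured genes of Polycomb proteins and of the demethylases that remove their mark, 5 were higher, 10 lower and none over 2-fold apart (median -0.15). Phc2 (1570 and 1513), Rnf2 (1064 and 868) and Eed (841 and 927), which encode subunits of the Polycomb complexes, had the highest mean signals. Of 9 Trithorax and other activator genes 8 were lower (6 after quantile normalization or loess) and none over 2-fold apart (median -0.12). Of all genes 58.1% were lower, and 9 of the 15 and 6 of the 9 genes lay below the median of all genes. Among the activators, Ash2l was 701 and 710.0, Wdr5 was 720 and 686 and Kat6a was 701 and 558. Brd1, named after its values were seen, was 529 and 465 (-0.19), but a dimmer probe set was 67.1 and 176 (1.39). Kmt2a, the methyltransferase that keeps Hox genes active, was 625 and 573 (-0.12) and is named after its values were seen. Its other probe set was 281 and 330 (0.23), so the probe sets of Kmt2a disagreed in direction. Of 10 caudal, ParaHox and cluster-end homeobox genes only Evx2, which lies beside Hoxd13, reached 100 (131 and 109.9, -0.25), and the regulators Cdx1, Cdx2 and Cdx4 were low on both arrays.

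The protein-coding genes directly outside the clusters, picked by their order after the data were seen, gave no common direction. Skap2 beside cluster A was 550 and 617 (0.17), or below 0 with spike-ins. Beside cluster C, Smug1 was 312 and 244 (-0.36). Calcoco1, also beside it, was 394 and 396 (0.01), which is below 0 with median centring and spike-ins. Mtx2 beside cluster D was 800.0 and 813 (0.02, or below 0 with median centring and spike-ins). Ttll6 and Skap1 beside cluster B were under 100 on both arrays, as was Evx1 beside cluster A.

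**Figure D5:**
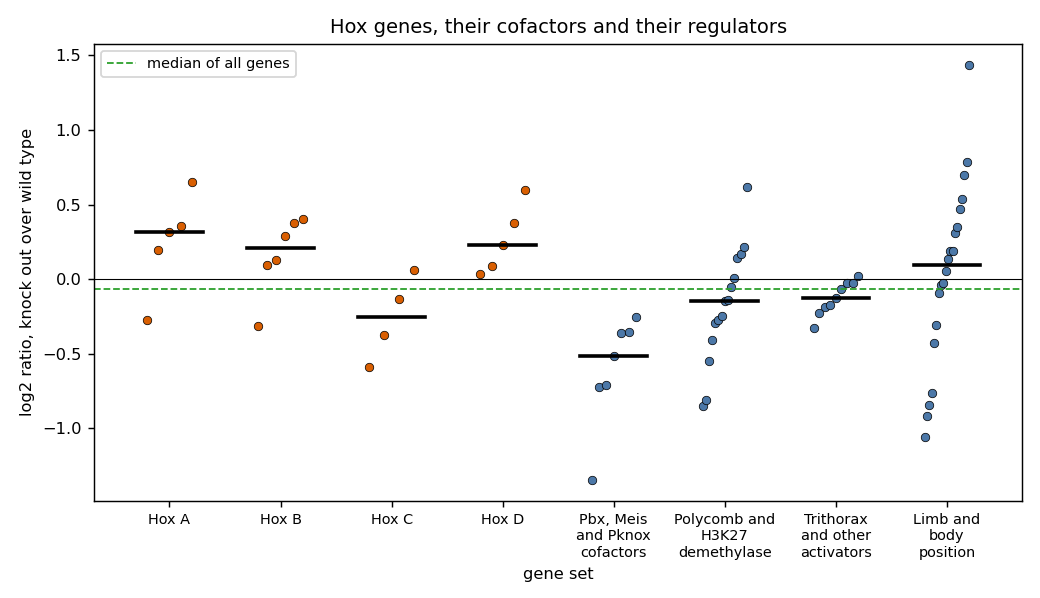
Log2 ratio (knock out to wild type) under the deposited scaling for the measured Hox genes by cluster (orange) and for genes of related lists (blue), 1 point per gene, with black lines at the medians and a dashed line at the median of all genes (-0.06). All 7 cofactor genes lie below 0, of which 5 reached 100 in knock out MEFs too. Of the 4 Hox clusters, 3 have medians above 0 (none with spike-ins).

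Genes listed for limb and body position, many of which are expressed with Hox genes in the embryo, went both ways. Of 24 measured genes 20 reached 100, with 11 higher and 9 lower (median 0.09, or -0.01 after median centring and -0.29 with spike-ins). Of all 10553 genes 41.9% were higher, and 13 of the 20 lay above the median of all genes under the deposited scaling. Grem1, a BMP antagonist of the limb bud, was 226 in wild type MEFs and 613 in the knock out (1.44), and Alx1, a gene of head mesenchyme, was 241 and 116 (-1.06). The mesenchymal genes Prrx1 (3439 and 3379), Twist1 (1069 and 1039.9) and Prrx2 (858 and 890.1) had the highest mean log2 signals and were similar on both arrays. The hindlimb genes Tbx4 (222 and 308) and Pitx1 (173 and 221), named after their values were seen, reached 100 on both arrays on their reported probe sets. The forelimb gene Tbx5 (31.0 and 30.8) was low on both. These levels are not compared between genes. For Pitx1 another probe set was 193 and 137, and for Tbx4 another was 46.3 and 146 (1.65). Of 5 measured genes listed for the head, Lhx2 reached 100 in knock out MEFs alone (64.5 and 144). Otx1, Otx2, Six3 and Emx1 were low on both arrays. Whether these genes are confined to the head was not examined.

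The label of the cells was checked against markers. All 12 fibroblast markers were at least 100 on both arrays, with Fap over 2-fold lower in knock out MEFs (409 and 155). As deposited 6 were higher and 6 lower, with log2 ratios from -1.40 to 0.39, and with spike-ins all 12 were below 0. Their summed signal, to which the brightest markers contribute most, was 72941 and 74451. The 6 epithelial markers summed to 472 and 1880, of which Epcam, through 1 of its probe sets, made up 174 and 1350.5, while its other probe set was low at 5.81 and 4.07. Krt19 (88.0 and 197) and Cldn4 (36.2 and 121) were also higher, and Cdh1, Krt8 and Krt18 were under 100 on both arrays. Their part in the Hox signals was not tested. Of endothelial, blood and skeletal muscle markers Kdr, Lyz2, Actc1 and Des reached 100, Des with 94.0 and 100.3 on its reported probe set and 127 and 55.2 on the other, and 4 of 6 neural markers did so on both arrays.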

How the data were processed

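Per the labels and the methods of the study, the authors made the deposited intensity values with MAS5 (Microarray Suite 5.0), which combines perfect-match and mismatch probes into 1 linear signal per probe set and brings all arrays to the same target intensity. The choice of scaling can set the sign of small ratios, and the effect of mismatch subtraction was not tested. The methods name a human array, but the identifiers are those of a mouse array. Detection calls were not used here.

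After 64 control probe sets were left out, 45037 remained, of which 34945 had 1 symbol, 932 several and 9160 none. Symbols were updated through RefSeq (GRCm38.p6), which also supplied promoter windows. The ratio of knock out over wild type signal is given as log2. A gene was counted with at least 100 on at least 1 array, and as apart when over 2-fold. A fold against a signal under 100 is a bound with that signal set to 100, under the deposited scaling only. Named were all Hox genes, and of other lists the genes over 2-fold apart and up to 3 with the highest mean log2 signal, with exceptions stated. Members and lists were chosen with earlier results of these data known. No test was run with 1 array per genotype. Steps were tested on simulated data. Alternatives were other scalings, treatments of low signals, probe set choices, minimum signals and fold thresholds. Python 3.11.15, pandas 2.3.3, numpy 2.4.6 and statsmodels 0.14.6 (loess fraction 0.3) were used.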

Additional observations from a re-analysis of the deposited data

How the results depend on the processing

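No paired analysis was possible because each genotype has 1 array. Ratios that changed by more than 1.5-fold, and counts outside 1.5 times the reported count, are called moved. Of 158 values of single Hox genes 3 moved, all with the mean over all probe sets (Hoxb3 -0.59, Hoxd8 -0.50 and Hoxd13 0.92), and 20 changed sign, 12 of them with spike-in scaling and 4 with median centring, which lower all ratios alike. Of the 20 measured genes, 15 above 0 became 3 with spike-ins. At a minimum signal of 200 they were 7 of 9 genes, and at 500 they were 1 of 1. The median of 0.16 ranged from -0.23 with spike-ins to 0.16, and that of cluster C stayed negative, from -0.64 to -0.04. No gene over 2-fold apart became 3 higher and 2 lower without a minimum, which adds low genes, and 2 higher and 1 lower at a threshold of 1.5, and stayed 0 under the others. The 16 wild type and 18 knock out genes at 100 became 9 and 9 at a minimum of 200 and 1 and 1 at 500. Low signal limits these ratios, since 13 of 33 Hox genes were under 100 on both arrays. No gene of clusters A, B and C reached 500, so that minimum gave no value for them.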
